A study of Mus musculus with 20 samples.

Results

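The genes described here are 10 members of the TREM2 signalling pathway and of the microglial genes tied to Alzheimer's disease risk, taken by symbol from a table of 24513 genes: Trem2, Tyrobp, Hcst, Syk, Plcg2, Inpp5d, Abi3, Cd33, Ms4a6d and Ms4a7. All 10 were found in every library, and 9 of the 10 had enough counts to be tested. RNA came from the hippocampus of male mice aged 9 months and labelled as strain C57BL/6J, and was sequenced as polyadenylated RNA in 20 libraries, 5 for each of 4 genotypes: PS19, PS19/C3aR KO, WT and C3aR KO. PS19 mice make mutant human tau of a kind found in frontotemporal dementia, under the promoter of the mouse prion protein gene. The complement fragment C3a binds C3aR, the product of C3ar1, and the design asks how a deletion of this receptor changes the hippocampus of mice with and without the tau transgene. The labels do not say whether each library is a separate animal, whether the C3aR deletion is in all cells, or whether libraries were made in batches. P-values are therefore about the spread among libraries, part of which may be technical.

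TREM2 is a surface receptor of microglia, the resident macrophages of the brain, and binds lipids, lipoproteins and other ligands. It has no signalling tail of its own and passes its signal through the adaptor DAP12, encoded by Tyrobp, whose ITAM motif recruits the kinase SYK, and through the related adaptor DAP10, encoded by Hcst, which recruits phosphoinositide 3-kinase. Downstream, PLCG2 cleaves the membrane lipid PIP2 and the phosphatase SHIP1, encoded by Inpp5d, removes the product of phosphoinositide 3-kinase, which limits the signal. ABI3 belongs to a family of actin regulators, CD33 is a sialic-acid-binding receptor that carries inhibitory motifs in humans, and MS4A6D and MS4A7 are members of a family of membrane proteins whose human gene cluster is linked to the level of soluble TREM2. Variants in or near the human counterparts of several of these genes have been associated with the risk of Alzheimer's disease.

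Gene counts per library ranged from 33885850 to 47828111, and scaling factors (TMM) from 0.959 to 1.04. Counts of C3ar1 were not reduced in the groups labelled C3aR KO. Its level, in CPM (read counts scaled by library size with TMM factors, mean ± SD, n = 5 here and below), was 2.08 ± 0.286 for WT and 10.3 ± 3.43 for PS19. For C3aR KO it was higher, 16.0 ± 1.48, and for PS19/C3aR KO 17.0 ± 1.58. The sources used here do not say which part of the gene was deleted, and these groups are named by their label. Library 5 of PS19 stood apart from the other PS19 libraries: it had the lowest level of all 10 members in that group, while the level of Prnp, the gene whose promoter drives the transgene, was 1882 CPM there, within the range of the PS19 libraries (1837 to 1916) and above that of the libraries without the transgene (824 to 949). Counts on Rn45s, the ribosomal RNA precursor, took 3.65% of its gene counts, against 2.85 to 4.48% in WT and 0.873 to 1.77% in the other PS19 libraries. Several results are given with and without it. The library was set apart on the members' own values, so leaving it out raises their PS19 means and tends to lower their spread. Results without it are descriptions and not separate evidence. The hippocampal libraries held neuronal, astrocytic and oligodendrocytic markers throughout, and the microglial markers, defined below, were detected in every library. Choroid plexus markers varied widely, with a summed level of 165 to 6500 CPM, and their range overlapped between all genotypes.

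The members lie on 7 chromosomes (RefSeq, GRCm38.p6, the same build as mm10). Trem2 lies on the plus strand of chr17:48346401-48352276. Tyrobp on the plus strand of chr7:30413782-30417582 and Hcst on the minus strand of chr7:30417712-30419854 stand tail to tail, 129 nt apart. Ms4a7 (chr19:11321039-11336146) and Ms4a6d (chr19:11586606-11604804) are both on the minus strand, 250459 nt apart. Abi3 (chr11:95830072-95842476, minus strand) shares 39.7% of its exon bases with Phospho1 and 3.42% with Gngt2, both on the opposite strand. These shares are from GENCODE vM21 exons, which may differ from the annotation the counts were made with. Whether counting used strand is not given in the labels or files, and reads in the shared bases cannot be assigned to one gene, so the Abi3 values carry that uncertainty. Syk (chr13:52582610-52648792, plus strand), Plcg2 (chr8:117498275-117635142, plus strand), Inpp5d (chr1:87620312-87720510, plus strand) and Cd33 (chr7:43527399-43537424, minus strand) complete the set.

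Because the members moved together, their promoters were searched on both strands for 4 motifs of factors active in macrophages. The windows ran from 250 bases before to 50 after each start site, and 7 of the 10 members had entries in the RefSeq promoter table, 9 in all. Tyrobp, Abi3 and Ms4a6d had none. The PU.1 motif GAGGAAGT was in 1 of the 9 member windows (Inpp5d) and in 3.2% of 32851 promoters of the same length. The AP-1 motif TGANTCA was in 2 of 9 (Trem2 and one Ms4a7 start) and in 7.81% of all promoters. The motif CACGTG, bound by the MiT/TFE family of lysosomal regulators, was in 1 of 9 (Plcg2) and in 7.15% of all. The ETS-IRF composite motif was in 0 of 9 and in 2.72% of all. No one motif was shared by most of the members' windows. The 100 bases before the start site, 5′ to 3′ on the gene's strand, are printed for the 3 members whose match lies nearest the start, with the match in capitals; these are matches of letters, not measured binding.
Inpp5d (chr1:87620212-87620311, plus strand): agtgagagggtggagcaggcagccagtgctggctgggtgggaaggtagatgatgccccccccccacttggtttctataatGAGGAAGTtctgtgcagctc
Plcg2 (chr8:117498175-117498274, plus strand): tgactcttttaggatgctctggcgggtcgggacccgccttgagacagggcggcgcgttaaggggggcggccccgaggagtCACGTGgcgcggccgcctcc
Trem2 (chr17:48346301-48346400, plus strand): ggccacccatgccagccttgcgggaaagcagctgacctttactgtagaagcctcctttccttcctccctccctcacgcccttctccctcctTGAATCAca

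Levels can be compared between genes only per length, so CPM were divided by the exon length of each gene in kilobases (GENCODE vM21 exons, which may differ from the annotation the counts were made with). In WT the adaptor Tyrobp was the most abundant member, at 15.1 ± 2.0 CPM per kb, followed by the receptor Trem2 at 8.43 ± 0.895. These neighbours did not overlap. Inpp5d followed at 2.94 ± 0.240, Plcg2 at 1.72 ± 0.141 and Abi3 at 1.23 ± 0.0562, each again clear of its neighbours. The place of Abi3 is uncertain, because 39.7% of the exon bases in its length are shared with Phospho1. If reads there were not counted for Abi3, its level per kb would be higher than given. Cd33 at 0.898 ± 0.0977 and Syk at 0.823 ± 0.0866 overlapped in WT. Ms4a6d, at 0.602 ± 0.140, lay below every WT value of Syk. Hcst (0.283 ± 0.190) and Ms4a7 (0.158 ± 0.0632) were the lowest and overlapped each other, and Hcst also overlapped Ms4a6d. The order was the same in the libraries labelled C3aR KO, while in both groups with the transgene the mean of Ms4a6d stood just above that of Syk (1.66 ± 0.624 against 1.48 ± 0.436 CPM per kb in PS19), well within their spread.

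In PS19 hippocampus all 9 tested members were higher than in WT (edgeR quasi-likelihood test, Benjamini-Hochberg adjusted p below 0.05), where 7.5% of the 16657 genes tested were called higher and 10.8% were called in either direction. Their median log2 fold change was 0.97, against -0.0068 over all genes tested. Trem2 and Tyrobp, the receptor and its main adaptor, had the highest fold changes, and Plcg2 the lowest. In 6 of the 10 members every PS19 library lay above every WT library, a separation that 5.93% of the genes tested showed.

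Trem2, the receptor, measured 8.13, 10.9, 10.02, 9.25 and 9.92 CPM in WT libraries 1 to 5 and 37.3, 31.6, 36.5, 35.3 and 13.8 CPM in PS19 libraries 1 to 5. In the libraries labelled C3aR KO it measured 9.13, 8.38, 8.17, 10.6 and 10.3 CPM, and in those labelled PS19/C3aR KO 20.4, 12.98, 24.7, 11.8 and 11.2 CPM. PS19 libraries 1 to 4 lay close together and far above WT, library 5 lay above the highest WT library but nearer to WT than to them, and the PS19/C3aR KO libraries filled the space in between, with libraries 1 and 3 at the top. The PS19 mean was 3.21-fold the WT mean (log2 fold change 1.68, SE 0.24, adjusted p = 0.000279). Without PS19 library 5 the log2 fold change was 1.87.

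Tyrobp, which encodes DAP12, measured 8.53, 8.14, 8.57, 7.09 and 10.2 CPM in WT libraries 1 to 5 and 43.1, 32.7, 34.7, 43.9 and 13.7 CPM in PS19. The libraries labelled C3aR KO measured 8.60, 10.4, 8.55, 10.4 and 9.85 CPM, and those labelled PS19/C3aR KO 22.8, 14.9, 28.1, 15.7 and 12.3 CPM. The pattern followed that of its receptor, including the low PS19 library 5 and the high PS19/C3aR KO libraries 1 and 3, and no library with the transgene overlapped WT. Tyrobp rose 3.95-fold in PS19 (log2 fold change 1.98, SE 0.25, adjusted p = 0.000163), the steepest change of the 9.

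Hcst, which encodes the other adaptor, DAP10, was near the limit of detection and did not pass the filter on low counts. It had 3, 1, 3, 7 and 9 counts in WT libraries 1 to 5, and 8, 10, 14, 16 and 3 in PS19. The libraries labelled C3aR KO had 3, 8, 6, 3 and 3 counts, and those labelled PS19/C3aR KO had 11, 5, 7, 6 and 4. The groups overlapped. Its mean was 0.125 CPM in WT and 0.260 CPM in PS19, a difference of 0.135 CPM (exact permutation test over 252 splits, two-sided p = 0.111, adjusted over 5 comparisons p = 0.476). Without PS19 library 5 the difference was 0.179 CPM (exact permutation p = 0.0397, not adjusted). That library was set apart as the lowest of PS19 for every member, Hcst included. The larger difference follows from that choice, and this p-value is not evidence of a rise. With its neighbour Tyrobp ending 129 nt away on the other strand, its counts are a small number beside a highly covered gene.

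**Figure D1:**
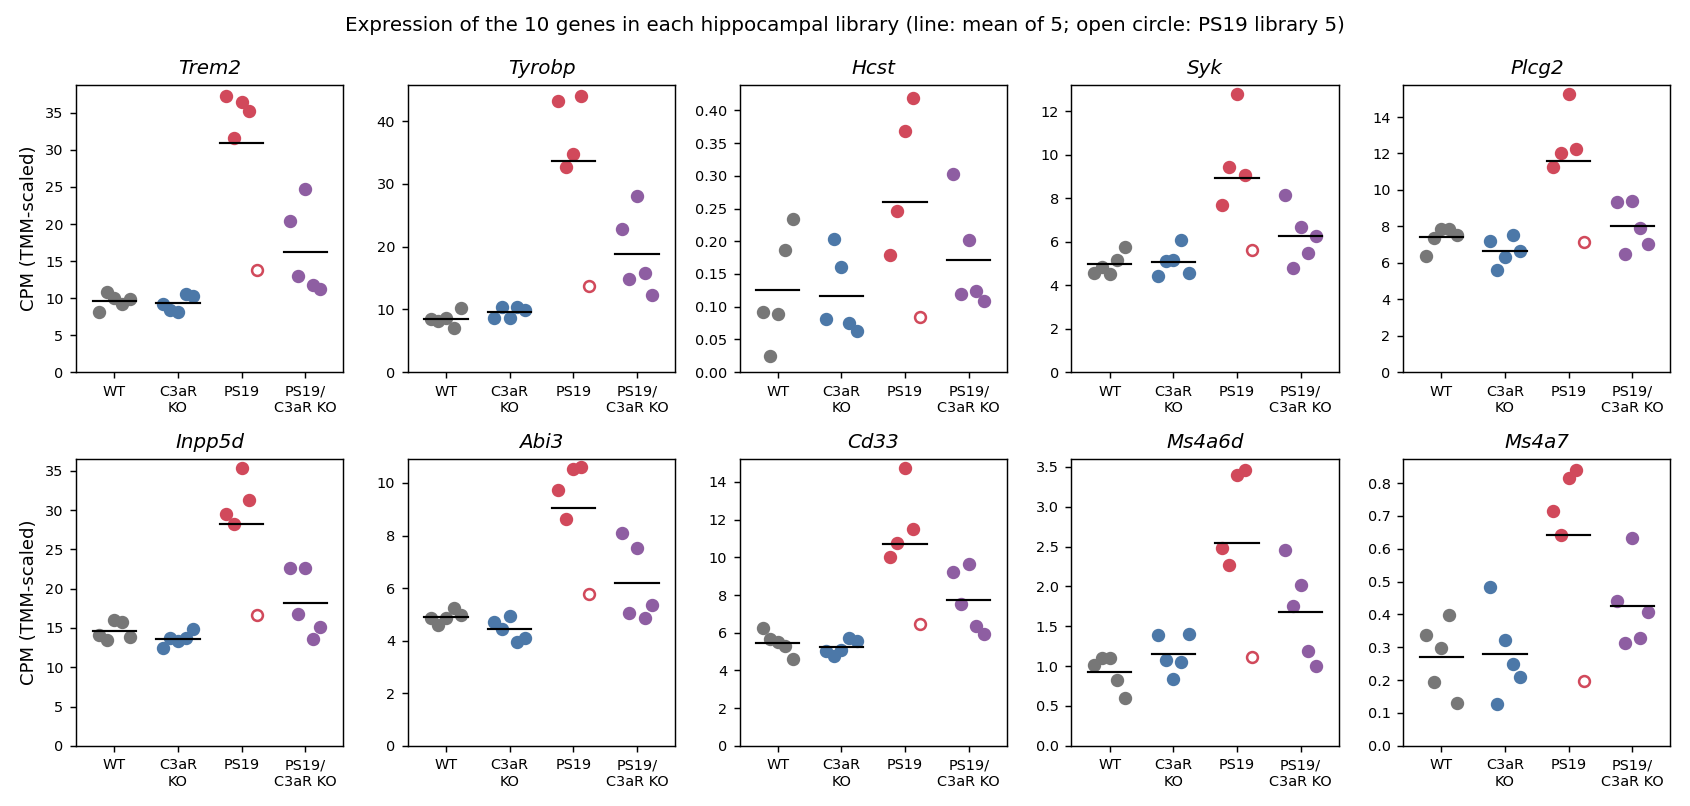
Expression of the 10 genes in CPM (TMM-scaled, linear axis from 0) in each of the 20 libraries, by genotype, with a line at the mean of 5 libraries and PS19 library 5 drawn as an open circle. Library 5 is the lowest PS19 library in all 10 panels, and libraries 1 and 3 are the highest PS19/C3aR KO libraries in all 10.

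The signalling enzymes rose too, with lower fold changes than the receptor and its adaptor. Syk, the kinase that binds phosphorylated ITAMs, measured 4.51 to 5.77 CPM in WT (median 4.83) and 7.68, 9.41, 12.8, 9.07 and 5.62 CPM in PS19 libraries 1 to 5. PS19 libraries 1 to 4 were above all of WT and library 5 was within the WT range. Syk rose by 0.84 on the log2 scale (SE 0.17, adjusted p = 0.00361). Plcg2, the phospholipase, measured 6.38 to 7.86 CPM in WT (median 7.51) and 11.3, 12.1, 15.3, 12.3 and 7.16 CPM in PS19, again with library 5 alone inside the WT range (log2 fold change 0.65, SE 0.15, adjusted p = 0.00847). Inpp5d, the phosphatase that opposes phosphoinositide 3-kinase, measured 13.5 to 16.1 CPM in WT (median 14.1) and 29.5, 28.2, 35.4, 31.3 and 16.6 CPM in PS19. All 5 PS19 libraries exceeded WT, library 5 narrowly (log2 fold change 0.94, SE 0.16, adjusted p = 0.000985). The enzyme that limits the signal and those that carry it thus rose in the same libraries.

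The remaining risk genes rose as well. Abi3, the actin regulator, measured 4.61 to 5.23 CPM in WT (median 4.88) and 9.74, 8.64, 10.5, 10.6 and 5.79 CPM in PS19, with no overlap (log2 fold change 0.88, SE 0.16, adjusted p = 0.00130). Of the genes that share exon bases with Abi3, Phospho1 did not pass the test (log2 fold change -0.092, adjusted p = 0.689) and Gngt2 rose (1.18, adjusted p = 0.00165), both in the same fit. Cd33 measured 4.62 to 6.26 CPM in WT (median 5.49) and 10, 10.7, 14.7, 11.5 and 6.46 CPM in PS19, with no overlap (log2 fold change 0.97, SE 0.17, adjusted p = 0.00113). The Ms4a genes had few counts and wider errors. Ms4a6d measured 0.597 to 1.10 CPM in WT (median 1.01) and 2.48, 2.27, 3.40, 3.46 and 1.12 CPM in PS19, where library 5 exceeded the highest WT library by little (log2 fold change 1.46, SE 0.29, adjusted p = 0.00285). Ms4a7, with 5 to 15 counts per WT library, measured 0.130 to 0.399 CPM in WT (median 0.297) and 0.716, 0.642, 0.817, 0.839 and 0.196 CPM in PS19, library 5 being inside the WT range (log2 fold change 1.25, SE 0.38, adjusted p = 0.0396).

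Of these calls, Ms4a7 was the least stable. It was lost on leaving out WT library 1, 2, 3 or 5 or PS19 library 1, 2, 3 or 4, where the log2 fold change stayed between 1.07 and 1.34, and also with limma-voom (adjusted p = 0.0711) and with only these groups fitted (adjusted p = 0.0688). The Rn45s share differed between the groups as given above, and with that share as a covariate Syk (log2 fold change 0.62, adjusted p = 0.109), Plcg2 (0.49, adjusted p = 0.160) and Ms4a7 (1.27, adjusted p = 0.181) did not pass in edgeR, while the other 6 did, Trem2 at 1.41 and Tyrobp at 1.68. Calls over all genes fell from 1803 to 431 in that fit.

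In the libraries labelled C3aR KO without the transgene, none of the 9 members differed from WT in edgeR, 0 of them had an unadjusted p under 0.05 (6% of all genes tested), and DESeq2 and limma-voom also called 0; 0.06% of the genes tested were called. Their log2 fold changes ran from -0.15 (Plcg2) to 0.32 (Ms4a6d), with a median of -0.050 beside -0.0022 over all genes tested. For Trem2 the log2 fold change was -0.050, with a 95% interval of -0.55 to 0.45, and for Tyrobp 0.17, with an interval of -0.36 to 0.69. Changes within these bounds remain possible. The intervals were not adjusted for the number of genes tested, so changes somewhat beyond them could also go uncalled. Inpp5d measured 12.4 to 14.8 CPM in these libraries, Syk 4.39 to 6.06 CPM and Plcg2 5.58 to 7.535 CPM. Abi3 measured 3.93 to 4.92 CPM, Cd33 4.76 to 5.71 CPM, Ms4a6d 0.833 to 1.398 CPM and Ms4a7 0.127 to 0.482 CPM. All 10 members overlapped WT.

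Among mice with the transgene, all 9 members had lower means in the libraries labelled PS19/C3aR KO than in PS19, and none passed the test in edgeR, where 0.252% of the genes tested were called and 0.18% were called lower. The median log2 fold change of the members was -0.60, against -0.0041 over all genes tested, and 8 of 9 had an unadjusted p under 0.05, beside 14.5% of all genes tested. Trem2 had a log2 fold change of -0.93 (SE 0.23, 95% interval -1.42 to -0.45, adjusted p = 0.0814) and Tyrobp of -0.84 (SE 0.24, adjusted p = 0.113). For the enzymes the values were -0.51 for Syk (adjusted p = 0.169), -0.53 for Plcg2 (adjusted p = 0.110) and -0.64 for Inpp5d (SE 0.16, adjusted p = 0.0814). Abi3 (-0.55, adjusted p = 0.109), Cd33 (-0.47, adjusted p = 0.192), Ms4a6d (-0.60, adjusted p = 0.326) and Ms4a7 (-0.61, adjusted p = 0.460) had the same sign.

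The libraries of these groups overlapped for every member, where 1.58% of the genes tested lay wholly below PS19. The PS19/C3aR KO values of Syk were 8.14, 4.80, 6.67, 5.46 and 6.24 CPM in libraries 1 to 5, those of Plcg2 9.35, 6.502, 9.40, 7.89 and 7.03 CPM, and those of Inpp5d 22.6, 16.8, 22.6, 13.6 and 15.1 CPM. Libraries 1 and 3 were the highest of the group for all 10 members, as in the plot of CPM by library, and PS19 library 5 lay among or below the PS19/C3aR KO values. Abi3 measured 8.11, 5.06, 7.53, 4.86 and 5.35 CPM in this group and Cd33 9.22, 7.51, 9.63, 6.37 and 5.92 CPM. Ms4a6d measured 2.46, 1.75, 2.01, 1.195 and 1.005 CPM, and Ms4a7 0.442, 0.312, 0.632, 0.330 and 0.407 CPM, both below the PS19 medians in every library but with overlap. Without PS19 library 5, edgeR called 7 of the 9 members lower, where 2.5% of genes were called lower: Trem2 (log2 fold change -1.12, adjusted p = 0.00474), Tyrobp (-1.04, 0.00645), Inpp5d (-0.78, 0.00459), Plcg2 (-0.66, 0.00665), Abi3 (-0.68, 0.0109), Cd33 (-0.60, 0.0250) and Syk (-0.64, 0.0278). Ms4a6d (adjusted p = 0.0962) and Ms4a7 (adjusted p = 0.183) were not called. Library 5 had been set apart because it was the lowest PS19 library for all 10 members. Leaving it out raises the PS19 mean of each by construction, so these calls are not separate evidence of a difference. Without library 1 of PS19/C3aR KO, Trem2 (adjusted p = 0.0481), Inpp5d (0.0432) and Abi3 (0.0441) were called in edgeR, where 222 genes were called in all. That library was, with library 3, the highest of its group for all 10 members. Leaving it out lowers their group means, so these calls are not separate evidence either. On all libraries DESeq2 called 443 genes, against 42 by edgeR, and 5 members: Trem2 (adjusted p = 0.00935), Inpp5d (0.0120), Tyrobp (0.0292), Abi3 (0.0324) and Plcg2 (0.0326). Limma-voom called 0 members on all libraries. EdgeR also called 0 with the other scaling, filters and covariates, with the replicate block and with only these groups fitted. Members were thus called in this comparison only by DESeq2, or without PS19 library 5 or PS19/C3aR KO library 1.

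**Figure D2:**
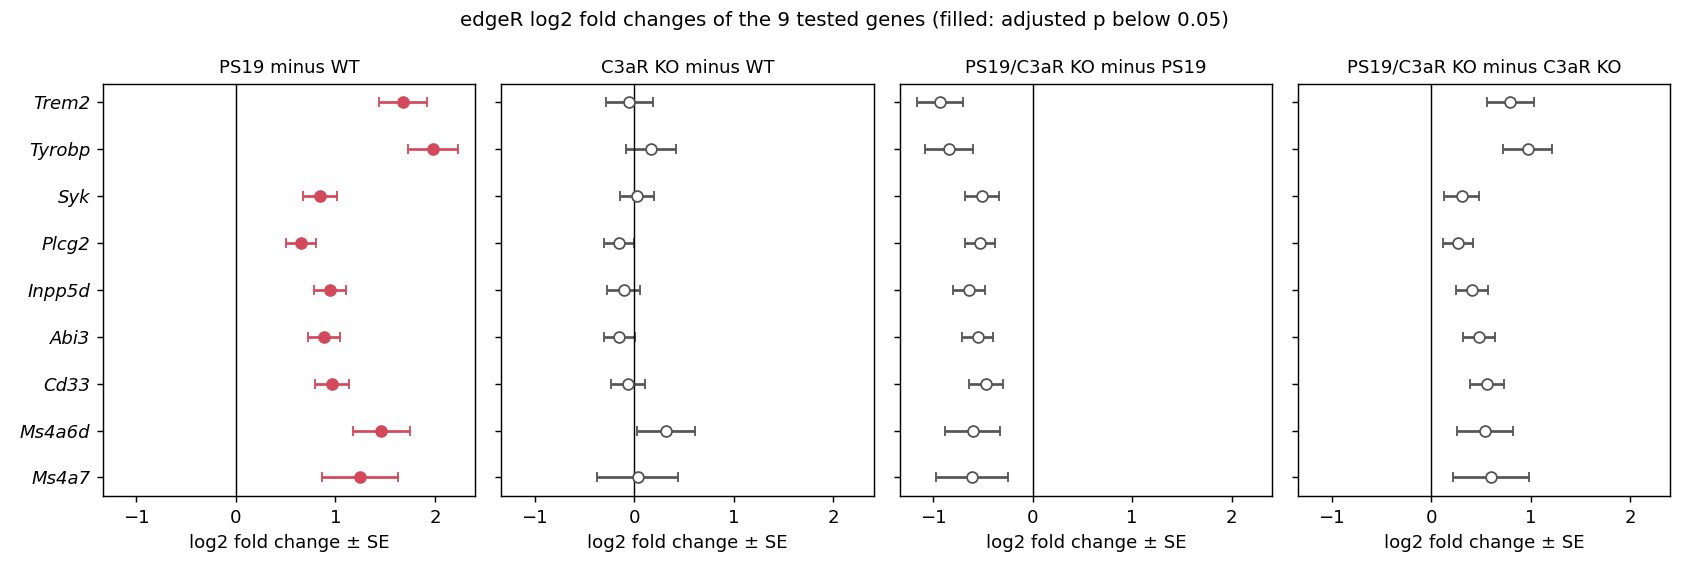
Log2 fold changes (points, with bars of 1 SE) of the 9 tested genes from the edgeR fit in 4 comparisons, filled where the adjusted p was below 0.05. In PS19 minus WT all 9 are filled and between 0.65 and 1.98; in PS19/C3aR KO minus PS19 all 9 are below 0 and open.

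Measured within the libraries labelled C3aR KO, the transgene went with higher means for all 9 members, and none passed in edgeR, where 0.006% of genes, a single gene, were called. Tyrobp had a log2 fold change of 0.97 (SE 0.25, adjusted p = 0.157) and Trem2 of 0.80 (SE 0.24, adjusted p = 0.213). Trem2, Tyrobp and Cd33 had all 5 PS19/C3aR KO libraries above all 5 C3aR KO libraries, a separation that 1.3% of the genes tested showed. The other fold changes ran from 0.27 (Plcg2) to 0.60 (Ms4a7), and 5 of 9 members had an unadjusted p under 0.05, beside 9.71% of all genes tested. DESeq2, which called 158 genes in all here, called Tyrobp alone of the members (adjusted p = 0.0150). Leaving out PS19 library 5, which is not in the contrast but enters the shared estimate of spread, brought Trem2 (adjusted p = 0.0462) and Tyrobp (adjusted p = 0.0264) past the threshold in edgeR, where 0.627% of genes were called.

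Against WT, PS19/C3aR KO hippocampus had 1 member called in edgeR, Tyrobp (log2 fold change 1.14, SE 0.25, adjusted p = 0.0354), with 1.07% of genes called, 0.588% higher. That call was lost on leaving out any 1 WT library or PS19/C3aR KO library 1 or 3 (log2 fold change 0.95 to 1.21, adjusted p 0.0512 to 0.115). Trem2 had a log2 fold change of 0.75 (adjusted p = 0.126) in edgeR and passed in DESeq2 (adjusted p = 0.0438, with 592 genes called in all) and without PS19 library 5 (adjusted p = 0.0326). For Trem2 and Tyrobp all 5 PS19/C3aR KO libraries lay above WT, which 2.06% of genes showed. These comparisons share the WT, PS19 or PS19/C3aR KO libraries with those above and are not independent of them.

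The interaction term, the difference made by PS19 in the libraries labelled C3aR KO minus that in the others, was negative for all 9 members. None passed in edgeR (adjusted p = 0.9995 for each), DESeq2 called 0 of the members and 3 genes in all, and edgeR called 0.012% of genes. The term was -1.01 for Tyrobp (SE 0.35, 95% interval -1.74 to -0.28) and -0.88 for Trem2 (SE 0.33, 95% interval -1.58 to -0.19), and 5 of 9 had an unadjusted p under 0.05, beside 4.15% of all genes tested. Without PS19 library 5 it was -1.22 for Tyrobp (adjusted p = 0.123) and -1.08 for Trem2 (adjusted p = 0.156). The PS19 difference was therefore not shown to depend on the C3aR KO label for any member.

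The members are expressed mainly by microglia and other myeloid cells, so their levels were set beside 14 microglia identity genes that contain no member, such as Csf1r, Gpr34 and Cx3cr1. In whole tissue, a change in the number of these cells and a change in the RNA each cell holds cannot be told apart. The mean log2 CPM of these genes (the microglia index) ran from 4.84 to 5.58 over the PS19 libraries and from 4.75 to 5.13 over those labelled PS19/C3aR KO. It ran from 4.64 to 4.80 over WT and from 4.54 to 4.72 over C3aR KO, and 12 of the 14 genes were called higher in PS19 than in WT. The 14 genes did not move alike in that comparison, with log2 fold changes from -0.34 to 1.26 (median 0.61). The index moved with the members library by library: PS19 library 5 had the lowest index of its group (4.84), and PS19/C3aR KO libraries 1 (5.13) and 3 (5.12) the highest of theirs.

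Relative to this index, only the receptor and its adaptor stood out without overlap. The log2 CPM of Trem2 minus the index was -1.68 to -1.19 in WT and -1.05 to -0.055 in PS19, a shift of the mean by 0.97. For Tyrobp it was -1.83 to -1.34 in WT and -1.07 to 0.15 in PS19, a shift by 1.25. The other shifts between PS19 and WT were 0.71 for Ms4a6d, 0.42 for Ms4a7, 0.29 for Cd33, 0.27 for Inpp5d, 0.22 for Abi3, 0.17 for Syk and -0.019 for Plcg2, with overlapping libraries for these 7. The choice of index mattered. A second index held 20 general myeloid genes, of which 19 were called higher in PS19, with a median log2 fold change of 1.49. Relative to these genes the shift was 0.24 for Trem2 and 0.52 for Tyrobp, with overlap. For the other 7 members it was below 0, from -0.012 (Ms4a6d) to -0.75 (Plcg2). Between PS19/C3aR KO and PS19 the shift relative to the microglia index was -0.52 for Trem2, -0.40 for Tyrobp and between -0.22 and -0.044 for the rest. Relative to the general myeloid genes it was -0.24 for Trem2 and -0.11 for Tyrobp, and above 0 for the other 7, from 0.060 (Inpp5d) to 0.24 (Cd33). These differences of log values are descriptions and were not tested.

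**Figure D3:**
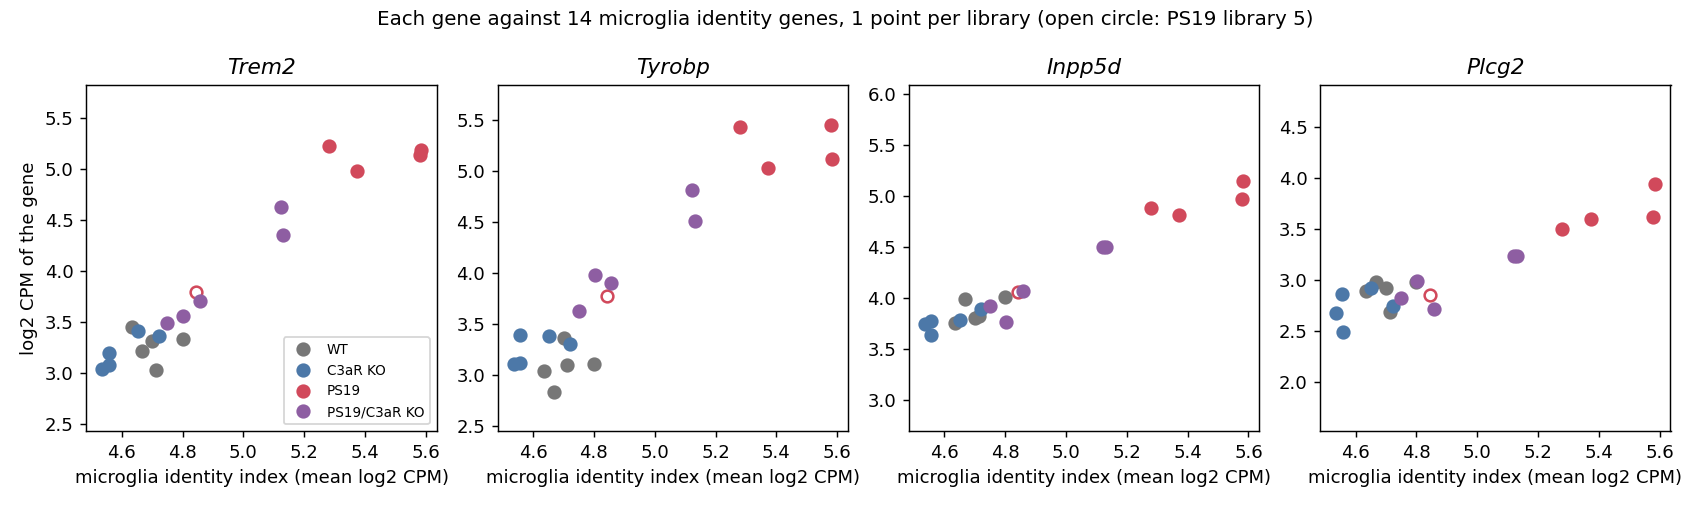
Log2 CPM of Trem2, Tyrobp, Inpp5d and Plcg2 (y axis, the same span in each panel) against the mean log2 CPM of 14 microglia identity genes (x axis), 1 point per library coloured by genotype, with PS19 library 5 as an open circle. PS19 library 5, at an index of 4.84, lies beside the WT and PS19/C3aR KO libraries in all 4 panels, and PS19 libraries 1 to 4 stand apart at the upper right.

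Across the 20 libraries, after subtracting each genotype's mean, the genes whose log2 CPM followed Trem2 most closely among 13438 included C1qc (Pearson r = 0.939), Adgre1 (0.938), C1qb (0.932), Gusb (0.930), Ctsz (0.929), C1qa (0.928) and Cd86 (0.922). C1qa, C1qb and C1qc encode the chains of complement C1q, Adgre1 the macrophage marker F4/80, and Gusb and Ctsz lysosomal enzymes. Of the members, Tyrobp (r = 0.921) ranked 10 among these genes and Inpp5d (0.900) ranked 25, followed by Plcg2 (0.850), Cd33 (0.831), Abi3 (0.817), Ms4a6d (0.785), Syk (0.666) and Ms4a7 (0.594). Without PS19 library 5 these named non-members had r of 0.866 to 0.901, Tyrobp 0.853, Syk 0.480 and Ms4a7 0.328. These correlations share library depth and the microglial content of each library and are given as descriptions.

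The wider pathway was counted from lists that do not contain the members, though some genes stand in more than 1 list. Of 11 ligands, shedding enzymes and related proteases of TREM2, 4 were higher in PS19 than in WT in edgeR, beside the 7.5% over all genes tested, with a median log2 fold change of 0.094: the lipoproteins Clu (0.72, adjusted p = 0.000240) and Apoe (0.63, adjusted p = 0.000811), and Adam17 (0.44) and Adam10 (0.15), the sheddases. Of the other receptors that pair with DAP12 or DAP10, 16 were in the files but only 3 passed the count filter, and 2 of these rose, Siglech (0.56) and Clec5a (1.32). Among 27 further genes of signalling below ITAM adaptors, 11 rose and 0 fell (median 0.36), among them the adaptor Lat2 (1.74), the Src-family kinases Lyn (1.07) and Fgr (3.55) and the exchange factor Vav1 (1.27).

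Of 17 tested phosphoinositide 3-kinase subunits and lipid phosphatases, 3 rose (Pik3cg 0.86, Pik3ap1 1.09 and Pik3r5 0.56; list median 0.092). Of 15 tyrosine phosphatases and inhibitory receptors, 9 rose (median 1.13), including Ptprc (1.82), the inhibitory Fc receptor Fcgr2b (2.42), Ptpn6 (1.46), which encodes SHP-1, and Lilrb4a (2.74). Of 6 other tested Siglecs, the broad receptor family that includes CD33, 5 rose, with Cd22 at 2.37 and Siglecf at 2.08. These are not all close relatives of Cd33, and Mag (0.56), also in that list, is a myelin gene. The Ms4a family had 14 further genes in the files and 2 tested, Ms4a6c (0.44, adjusted p = 0.191) and Ms4a6b (0.49, adjusted p = 0.322), neither of which passed. Of 12 genes of the Abi and WAVE actin complex, 2 rose, Rac2 (1.08) and Nckap1l (1.05), the forms typical of blood cells, and the list median was -0.0026. Of 47 other genes near Alzheimer's disease risk loci, 16 rose and 2 fell (median 0.15). The lowest p-values among them were those of Ctsh (1.34), Clu (0.72), Grn (0.97) and Spi1 (1.37), which encodes the myeloid factor PU.1.

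Between PS19/C3aR KO and PS19, 1 gene of these lists was called lower in edgeR, Lat2 (log2 fold change -1.05, SE 0.19, adjusted p = 0.0315; a mean of 4.98 CPM against 2.41 CPM), beside Selplg among the microglia identity genes (-0.53, adjusted p = 0.0363). List medians in that comparison were -0.20 for signalling below ITAM adaptors, -0.42 for tyrosine phosphatases and inhibitory receptors, -0.60 for Siglecs and -0.13 for other risk genes. They were -0.069 for TREM2 ligands and sheddases, -0.044 for phosphoinositide 3-kinase and lipid phosphatases and -0.072 for the Abi and WAVE complex. The shortest lists had -0.70 (3 other DAP12 or DAP10 receptors) and -0.31 (2 Ms4a genes). Over all genes tested the median was -0.0041. In C3aR KO minus WT no gene of these lists was called in edgeR. Against WT, PS19/C3aR KO had 0 called in the pathway lists and 3 of 20 in the general myeloid list, C1qb, C1qc and Cd53, with 1 of 14 microglia identity genes, Gpr34 (0.54, adjusted p = 0.0469), and 1 of 11 astrocyte genes, Gfap (1.52, adjusted p = 0.0173).

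Markers of other cells that can hold these transcripts were low or mixed. The summed level of 10 border-associated macrophage genes was 28.2 to 38.4 CPM in WT and 29.2 to 58.4 CPM in PS19, and 0 of 9 tested rose in edgeR; 2 of the 9 had an unadjusted p under 0.05 (Pf4 1.11, adjusted p = 0.0798). The 10 monocyte and neutrophil genes summed to 19.0 to 23.5 CPM in WT and 21.9 to 82.9 CPM in PS19, with 1 of 7 tested called, Csf3r (1.65). Of these 7, 6 had a log2 fold change above 0 (median 1.19) and 3 had an unadjusted p under 0.05. The highest was S100a9 at 3.69 (mean of 0.304 CPM in WT and 4.01 CPM in PS19, edgeR adjusted p = 0.0597). A single PS19 library with 19.0 CPM made up most of that PS19 mean, so the S100a9 value does not describe the group. Genes of T and NK cells summed to at most 4.06 CPM and those of B cells to at most 2.42 CPM in any library, with Cd3e at 0 in 3 libraries. Astrocyte genes rose in PS19 as well, 6 of 11, Gfap by a log2 fold change of 2.42, and 3 of 11 neuronal genes fell, such as Slc17a7 (-0.30). Of 10 genes of mature oligodendrocytes, 3 rose (Cldn11 0.65, Mag 0.56 and Ermn 0.57) and all 10 were above 0 (median 0.38); in PS19/C3aR KO minus PS19 all 10 were below 0 (median -0.29) and 0 were called in edgeR, 6 with an unadjusted p under 0.05. The part of these markers in the members' differences was not tested.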

How the data were processed

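Hippocampal polyadenylated RNA was sequenced in 20 libraries as 76-nt read pairs, then mapped by TopHat 2.0.9 (mm10) and assigned to genes by htseq-count using the union of exons, per the labels' protocols. The authors deposited these counts as whole numbers without normalization. Their processing notes list DESeq2 too and do not say for what. Strand setting and annotation release: not given in the sources used here. The 5 summary lines per file were left out; pairs meeting no exon were 17.4 to 25.4% and pairs meeting more than 1 gene 1.39 to 1.64%. Library pairs within a group differed by more than sampling noise (chi-square per degree of freedom 9.00 to 109 in 40 pairs).

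Tests came from 1 edgeR 4.0.16 quasi-likelihood fit (R 4.3.3) to all 20 libraries with genotype as the only factor, TMM scaling and filterByExpr (minimum count 10, minimum total 15), and Benjamini-Hochberg adjustment over 16657 genes per comparison. The filter's cutoff, 0.258 CPM, was reached by Hcst in 3 libraries, by Ms4a7 in 14 and by the other members in 20. Standard errors are the log2 fold change over the root of its F statistic. Log2 CPM used a prior count of 2. The fit was tested on simulated data. Alternatives were DESeq2 1.42.0, limma-voom (limma 3.58.1), other scaling, filters and covariates, a replicate block and leaving out each library. Up to 4 called genes per list with the lowest p were named, or 2 where none was called, and the 8 genes closest to Trem2 among those with mean log2 CPM 1 or more; Cd3e and S100a9 were named after their values were seen. Some results for genes under this rule are not reported here. The members and lists were chosen with earlier results of these data known.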

Additional observations from a re-analysis of the deposited data

Results flagged for a closer look

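Trem2 in PS19 library 5 measured 13.8 CPM, far below the other 4 PS19 libraries, the nearest of which measured 31.6 CPM. The gap to the nearest library was 0.755 of the group's range, above the 95% critical value of 0.71 for 5 samples. Of 44 gene and group combinations examined this was the only one past that value, and chance alone flags about 1 in 20.

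For C3ar1, the targeted gene, the PS19 difference itself differed between the libraries with and without the C3aR KO label: the interaction was -2.22 on the log2 scale (edgeR adjusted p = 0.00106). C3ar1 rose in PS19 over WT (log2 fold change 2.31) and had a log2 fold change of 0.088 between PS19/C3aR KO and C3aR KO (adjusted p = 0.947).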

How the results depend on the processing

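The 9 calls in PS19 minus WT numbered 8 or 9 on leaving out each library, 9 with DESeq2 and 6 once the Rn45s share was a covariate. In PS19/C3aR KO minus PS19 the members called rose from 0 to 5 with DESeq2 and ran from 0 to 7 on leaving out each library; in PS19/C3aR KO minus C3aR KO they rose from 0 to 1 and ran from 0 to 2. Against WT, PS19/C3aR KO had 1 called, 2 with DESeq2, 0 with limma-voom, 0 with the Rn45s covariate, 0 with only these groups fitted, and 0 to 2 on leaving out each library. Over all genes, calls ran from 6 to 481 around 42 in PS19/C3aR KO minus PS19, from 1 to 105 around 1 against C3aR KO, from 28 to 395 around 179 against WT, from 5 to 15 around 10 in C3aR KO minus WT and from 2 to 5 around 2 for the interaction, on leaving out each library; the highest came without PS19 library 5 except in C3aR KO minus WT. In PS19 minus WT they ran from 1190 to 2240 around 1803, with 2275 in DESeq2 and 431 with the Rn45s covariate. DESeq2 called 443 genes in PS19/C3aR KO minus PS19, 158 against C3aR KO, 592 against WT and 58 in C3aR KO minus WT. The Rn45s covariate gave 9 in PS19/C3aR KO minus PS19, 20 against WT and 3 in C3aR KO minus WT, and fitting only the groups compared gave 10, 43 and 5. Limma-voom gave 89 in PS19/C3aR KO minus PS19, 99 against WT and 1 for the interaction, and the choroid plexus covariate 352 against WT. The cause was not tested. In C3aR KO minus WT, signs changed for values near 0: Tyrobp to -0.086 and Syk to -0.18 with the Rn45s covariate, and on leaving out each library Trem2 ran from -0.099 to 0.0026, Syk from -0.041 to 0.090, Ms4a7 from -0.24 to 0.22 and Hcst from -0.034 to 0.019 CPM. Scaling Hcst without TMM factors, chosen after seeing the data, gave a PS19 minus WT difference of 0.143 CPM.

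Same-numbered libraries did not all deviate together: their correlations ran from -0.27 to 0.55 (median 0.14, 16 of 30 above 0.1), against a median of -0.042 and 36 of 120 above 0.1 for other numbers, and 7 of 20 libraries correlated best with their own number. Same-numbered libraries were thus somewhat more alike than others, and what they may share was not tested. The labels give no pairing, and the numbers were not taken as pairs. With the replicate block the members called were 9 in PS19 minus WT, 0 in PS19/C3aR KO minus PS19 and 1 against WT. The block changed no member's call. All-gene calls became 2105 in PS19 minus WT, 212 in PS19/C3aR KO minus PS19, 22 against C3aR KO and 305 against WT. Depth limits Hcst and Ms4a7.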
